A study of Mus musculus with 11 samples.

Results

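The mRNA levels of 7 oncofetal genes (Hmga1, Hmga2, Igf2bp1, Igf2bp2, Igf2bp3, Lin28a, and Lin28b) were examined in 11 OvTrpMyc cell lines. The genes were taken by name from a table of 28284 genes, in which all 7 were present. The lines came from 7 mice of the genotype Ovgp1-Trp53-R270H-Myc. In these mice the Ovgp1 promoter, which is active in the oviduct, drives both the mutant p53 and Myc from a transgene placed at the Trp53 locus, and every line shares this genotype, so no line without the transgene was available for comparison. Tissue was minced and grown ex vivo in RPMI 1640 without any treatment until the cells divided actively. The ovary (ROV and LOV, right and left, dissected with the fallopian tube) gave 7 lines and the uterus 2, and a tumor of the spleen and a tumor of the peritoneum gave 1 each. For the F361 peritoneal tumor line, the study's methods state that the mutant Trp53 codon was not seen in the reads. The labels give no ages.

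These genes are called oncofetal because they are active in the embryo, fall in most adult tissues, and return in many tumors. Hmga1 and Hmga2 encode small chromatin proteins that bind the minor groove of AT-rich DNA and bend it. Igf2bp1, Igf2bp2, and Igf2bp3 encode RNA-binding proteins that stabilize and localize mRNAs, MYC mRNA among them. Lin28a and Lin28b encode RNA-binding proteins that block the maturation of let-7, a microRNA family that in turn represses Lin28, Hmga, and Igf2bp mRNAs through sites in their 3′ untranslated regions.

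The let-7 seed and its matches are printed to show what joins these genes. In the RefSeq table (GRCm38.p6), 10 mature mouse miRNAs of the let-7 family, miR-98 included, share the seed GAGGUAG at bases 2 to 8, and let-7j differs from them in the last base of the seed. The capitals mark the seed.
mmu-let-7a-5p: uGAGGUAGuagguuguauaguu
mmu-miR-98-5p: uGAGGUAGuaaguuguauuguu
mmu-let-7j: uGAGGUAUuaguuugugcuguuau

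The longest annotated 3′ untranslated region of each gene was searched on the sense strand for CTACCTC, the complement of that seed, and every one of the 7 genes held at least 1 match. There were 4 matches in Hmga2, 4 in Igf2bp1, 4 in Lin28b, 2 in Lin28a, and 1 each in Hmga1, Igf2bp2, and Igf2bp3. Of 21042 mouse 3′ untranslated regions, 9.02% held at least 1 match and 0.0570% held 4 or more. Long regions hold more by their length. Among regions at least as long as its own, as many matches as the gene has were held by 0.288% for Hmga2, 0.548% for Lin28b, 0.798% for Igf2bp1, 4.57% for Lin28a, 16.1% for Hmga1, 18.95% for Igf2bp2, and 20.5% for Igf2bp3. The sites below, from GENCODE M21 on GRCm38, are all those of Hmga2 and the first of each other gene, with the match in capitals. A match is a description of the letters, and binding was not measured.
Hmga2, chr10:120364217-120364246, minus strand: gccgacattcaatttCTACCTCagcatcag
Hmga2, chr10:120362980-120363009, minus strand: ccccactcctcaataCTACCTCtgaatgct
Hmga2, chr10:120362542-120362571, minus strand: ctgatttgcaaggaaCTACCTCcacacttc
Hmga2, chr10:120361684-120361713, minus strand: aatcaaaacacactaCTACCTCttaagtcc
Hmga1, chr17:27563277-27563306, plus strand: tcctctgttcacaaaCTACCTCtggacggt
Igf2bp1, chr11:95961771-95961800, minus strand: gctgtgcgaagtaaaCTACCTCaaggtgtg
Igf2bp2, chr16:22059466-22059495, minus strand: acacacaaataaaagCTACCTCaggtgttt
Igf2bp3, chr6:49086780-49086809, minus strand: tgcatttttactcaaCTACCTCaggtattc
Lin28a, chr4:134005182-134005211, minus strand: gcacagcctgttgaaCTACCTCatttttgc
Lin28b, chr10:45381015-45381044, minus strand: acccgggcgggaagtCTACCTCatgcaagc

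Each line was sequenced once, so counting error is the only error that can be given for a single level. Error from culture, extraction, or library preparation could not be estimated. Intervals without overlap therefore show a difference between libraries, which may include such error. Levels are given as CPM, the counts on a gene per 1000000 counts of its library. The totals ran from 13580525 to 27044598 counts, and the detection floor, set at 3 counts, equals 0.111 to 0.221 CPM. The libraries carry numbers in their labels, and numbers 1 to 7 stood apart from numbers 8 to 11. A list of adult skeletal muscle fiber genes, 20 of 21 of which were in the table, took 6.84% to 12.7% of the counts in the former and 0.148% to 1.15% in the latter. The summed level of 4 Y-linked genes was 128 to 174 CPM against 1.75 to 19.2 CPM, in lines from female mice. Summed endothelial markers (5 of 5 in the table) were at 143 to 390 CPM against 2.27 to 72.5 CPM, adipocyte markers (5 of 5) at 151 to 323 CPM against 2.49 to 36.8 CPM, and macrophage and blood cell markers (7 of 7) at 32.6 to 95.9 CPM against 6.11 to 12.4 CPM. The summed mesenchymal markers went the other way, with 1893 to 17335 CPM against 23138 to 38710 CPM. For the cell type markers in these bulk libraries, the number of cells, the RNA per cell, and RNA from outside the line cannot be told apart. Where the Y-linked counts in lines from female mice came from was not tested. The epithelial list, the nearest to the label of ovarian cancer, summed to between 3.42 and 159 CPM. Of its genes, Epcam was at 0 to 2.12 CPM and Pax8, a marker of the Müllerian epithelium, at 0 to 3.04 CPM, while the keratins Krt18 and Krt8 reached 67.9 and 52.7 CPM and Krt19 21.7 CPM in F319 ROV, and Krt7 40.5 CPM in F333 uterus. The uterus lines are both in libraries 8 to 11, the splenic and peritoneal tumor lines are in libraries 1 to 7, and the ovary lines are divided, with 5 in the first set and 2 in the second.

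Hmga1 was the most abundant member by median CPM, although Igf2bp2 exceeded it in F318 ROV, F339 ROV, and F319 ROV. The Hmga1 gene lies on chromosome 17 (GRCm38, 27556497 to 27563674). Its level ranged 16.4-fold, from 11.9 CPM in the F361 peritoneal tumor line, called F361 below (95% Wilson interval 10.2 to 13.9), to 196 CPM in F318 LOV (190.3 to 202). The median over the lines was 80.9 CPM, above that of 91.6% of the genes in the table. In libraries 1 to 7 the lowest, median, and highest levels were 11.9, 53.6, and 84.9 CPM. In libraries 8 to 11 Hmga1 was at 90.4 CPM in F339 ROV, 196 CPM in F318 LOV, 189 CPM in F319 uterus, and 149 CPM in F333 uterus. The sets did not overlap, but F339 ROV and the highest of the others, F364 LOV, had overlapping counting intervals. F318 LOV and F319 uterus also overlapped in their intervals, so neither can be called the highest line.

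Hmga2 was lower and more variable. This gene (chromosome 10, 120361275 to 120476469) ranged 116-fold, from 1.18 CPM in F361 (0.725 to 1.91) to 137 CPM in F318 LOV (132 to 142). In libraries 1 to 7 its levels ran from 1.18 CPM over a median of 10.3 CPM to 51.5 CPM in F318 ROV, and the second highest of these lines, F364 LOV, had 16.2 CPM. F339 ROV had 67.4 CPM, F318 LOV 137 CPM, F319 uterus 77.2 CPM, and F333 uterus 68.3 CPM. All 4 lay above libraries 1 to 7, with F318 ROV nearest to them. The ratio of Hmga1 to Hmga2 counts was 10.1 in F361 and 1.22 in F318 ROV, the extremes of the 11 lines.

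Igf2bp2 was the leading member of its family by CPM in all lines but F333 uterus and F361. Igf2bp1 had 34.8 CPM against 32.9 CPM in F333 uterus, and Igf2bp3 had 1.55 CPM against 1.03 CPM in F361. The intervals overlapped in both cases. The level of Igf2bp2 (chromosome 16, 22059009 to 22163299) ranged 118-fold, from 1.03 CPM in F361 (0.614 to 1.73) to 122 CPM in F339 ROV (118 to 126). In libraries 1 to 7 it ran from 1.03 CPM over a median of 12.97 CPM to 77.3 CPM in F318 ROV. F339 ROV had 122 CPM, F318 LOV 107 CPM, F319 uterus 93.1 CPM, and F333 uterus 32.9 CPM. F333 uterus thus lay below F318 ROV and had an interval that overlapped that of F319 ROV at 29.96 CPM, so the sets overlapped.

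Igf2bp1 was scarce outside 5 lines. The gene (chromosome 11, 95957163 to 96005940) had no count in F326 ROV and 4 counts, or 0.295 CPM, in F361. It reached 34.8 CPM in F333 uterus (32.4 to 37.4), at least 174-fold above the 3-count floor of F326 ROV. F318 ROV had 23.6 CPM, F339 ROV 26.9 CPM, F318 LOV 24.3 CPM, and F319 uterus 15.1 CPM. The other lines with counts had 0.295 to 4.94 CPM, so the high lines included 1 from libraries 1 to 7, and the sets overlapped.

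Igf2bp3 had its 3 highest levels in libraries 8 to 11. The gene (chromosome 6, 49085223 to 49214957) was at 50.8 CPM in F318 LOV (48.0 to 53.8), 25.6 CPM in F339 ROV, and 10.6 CPM in F319 uterus. F333 uterus had 4 counts, 0.186 CPM (0.0722 to 0.477), the lowest of all lines, and the 274-fold range rests on those 4 counts. In libraries 1 to 7 Igf2bp3 ran from 0.401 CPM in F326 ROV over a median of 1.55 CPM to 8.29 CPM in F364 LOV, whose interval overlapped that of F319 uterus. Of the 10 pairs of neighbors in the order of its levels, 7 had overlapping intervals, F333 uterus and F326 ROV among them.

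Lin28a and Lin28b were at or near the floor. Lin28a (chromosome 4, 134003330 to 134018841), the form typical of early embryos and pluripotent cells, had 4 counts in F326 ROV, 4 in F361, and none in the other 9 lines. Lin28b (chromosome 10, 45376620 to 45486395), its paralog, found in fetal tissues and some tumors, had 27 counts, or 1.71 CPM (1.18 to 2.49), in F364 ROV. It had 2 counts in each of F326 ROV, F319 ROV, and F339 ROV and none in 7 lines. Where a line had no count, the floor of 3 counts was 0.111 to 0.221 CPM and the upper end of the Wilson interval 0.142 to 0.283 CPM, so expression was not detectable at this depth rather than absent. The other line of the same mouse, F364 LOV, had no Lin28b count. Markers of other cells that can express Lin28 genes were also low: germ cell markers (6 of 8 in the table) summed to 0.467 to 2.16 CPM, highest for Ddx4 in F364 ROV at 2.03 CPM, and pluripotency markers (3 of 7) to 0 to 1.45 CPM. Sox2 was at 0.888 CPM in F364 ROV, its highest line, and Nanog at 1.45 CPM in F339 ROV.

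**Figure D1:**
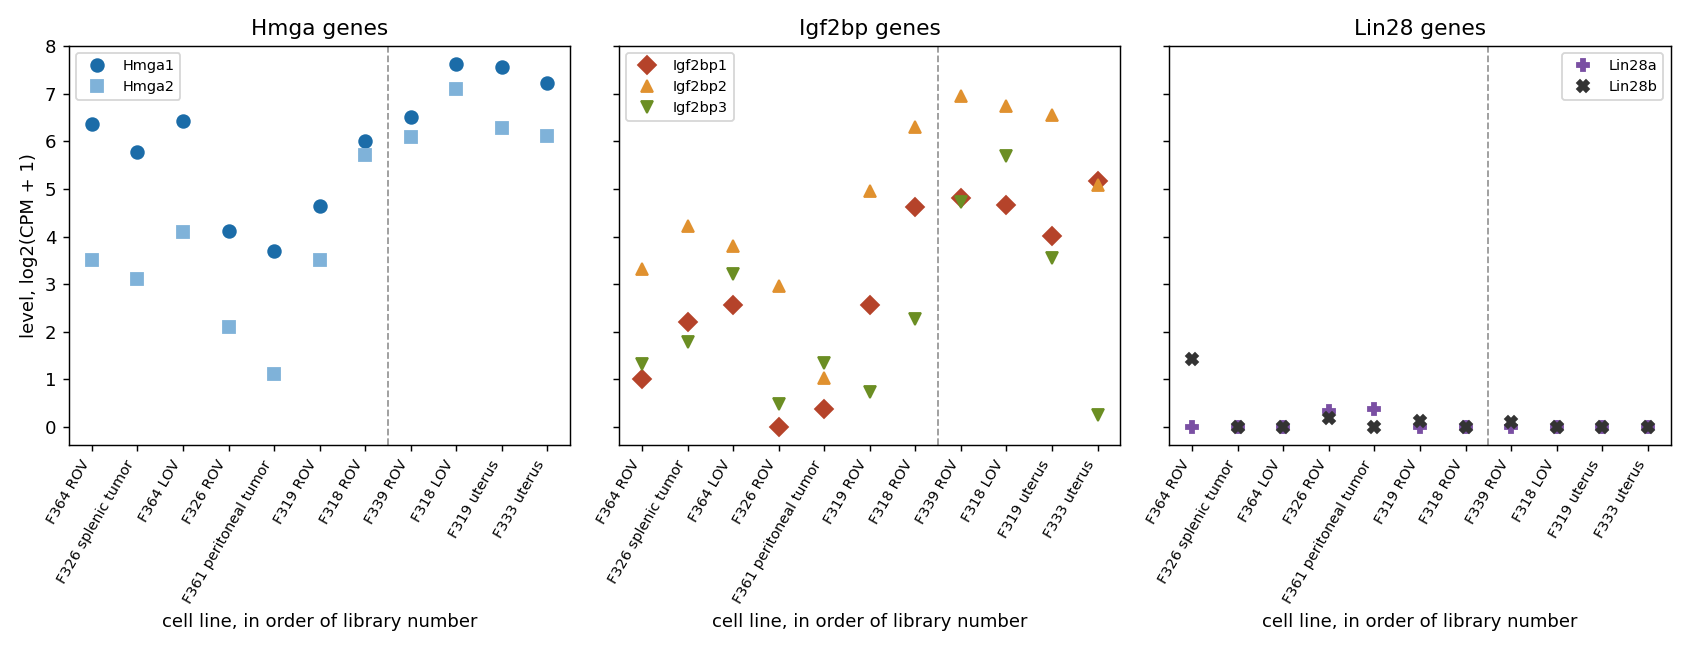
Level of each gene in each of the 11 lines, as log2(CPM + 1), with the lines in order of library number and a dashed line between numbers 7 and 8. Each point is 1 library. Hmga1 and Hmga2 lie higher in all 4 lines to the right than in the 7 to the left, Igf2bp3 falls to 0.186 CPM in F333 uterus, and Lin28a and Lin28b stay near 0 apart from 1.71 CPM of Lin28b in F364 ROV.

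Because a longer transcript yields more fragments, the members were set against each other as CPM per kilobase of exon. On this scale the median level was 38.0 for Hmga1, 4.05 for Igf2bp2, 2.39 for Hmga2, 0.510 for Igf2bp1, and 0.303 for Igf2bp3. Hmga1 exceeded each of the others in 11 of 11 lines. Igf2bp2 exceeded Hmga2 in only 6 of 11 lines, and Igf2bp1 exceeded Igf2bp3 in 5 of 11, so these neighbors do not have a fixed order. With coding length in place of exon length, Hmga2 and Igf2bp2 changed places.

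The makeup of the Igf2bp family differed from line to line. Per kilobase, Igf2bp2 made up the largest part in 10 of 11 lines, from 53.5% of the family in F364 LOV to 94.9% in F326 ROV. F361 was the exception, with 52.8% Igf2bp3, but on a family total of only 2.87 CPM. The count depends on the length used. By coding length (1731 bases for Igf2bp1 and 1776 for Igf2bp2), Igf2bp1 would lead in F333 uterus, where it had more CPM. F333 uterus was unlike the 3 other lines of libraries 8 to 11. There Igf2bp1 made up 44.6% of the family and Igf2bp3 0.282%, against 10.1% to 12.4% Igf2bp1 and 8.45% to 26.9% Igf2bp3 in F339 ROV, F318 LOV, and F319 uterus.

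The same lines were high or low for most members. Averaged over the ranks of Hmga1, Hmga2, Igf2bp1, Igf2bp2, and Igf2bp3, where 1 is the highest, F318 LOV stood at 1.6 and F339 ROV at 2.6, while F361 stood at 10 and F326 ROV at 10.2. The muscle fiber genes took 12.7% of the counts in F361 and 12.5% in F326 ROV, against 0.148% in F318 LOV, and their part in this order was not tested. Because the lines separate by library number, likeness between genes is given within libraries 1 to 7, as a description over 7 lines that differ in depth and in muscle share. Pearson's r of log2(CPM + 1) was 0.91 for Hmga2 with Igf2bp1, 0.91 for Hmga2 with Igf2bp2, and 0.89 for Igf2bp1 with Igf2bp2. Hmga1 had an r of 0.77 with Hmga2, 0.575 with Igf2bp1, and 0.554 with Igf2bp2. Igf2bp3 had an r of 0.70 with Hmga1, 0.58 with Igf2bp1, 0.56 with Hmga2, and 0.27 with Igf2bp2. These values change with the lines used: over all 11 lines, centered within each set, they were 0.322, 0.195, 0.385, and 0.409 in the same order, while the other 6 pairs had an r of 0.479 to 0.859.

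Myc, whose counts include those of the transgene, ranged from 6.92 to 93.6 CPM in the first set of libraries and from 153 to 291 CPM in the second. Within libraries 1 to 7, Myc had an r of 0.89 with Hmga2, 0.85 with Igf2bp2, 0.669 with Igf2bp1, 0.655 with Hmga1, and 0.25 with Igf2bp3. These values are descriptions, and their background over all genes was not computed. The E-box CACGTG, which reads the same on both strands and is the motif bound by MYC with MAX, was counted in RefSeq promoters (250 bases before to 50 after the start). Of the 6 members in the promoter table, Igf2bp3 held 2 E-boxes, Lin28b held 1, and Hmga1, Hmga2, Igf2bp2, and Lin28a held none in this window. Of 32851 promoters, 7.15% held at least 1 and 0.594% held 2 or more. Igf2bp1 was not in the promoter table.

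The genes nearest to each member in pattern were found after centering log2(CPM + 1) within each set of library numbers, over 11 lines and 13965 genes with a median of at least 1 CPM. For Hmga1 they were Errfi1 (r = 0.96), Uggt1, and 1810026B05Rik. For Hmga2 they were Ly75 (0.98), Cep170, and Bzw1. Cnn2 (0.97), Qsox1, and Lhfpl2 were nearest to Igf2bp1, and Otud5 (0.97), Eml4, and Arhgef2 to Igf2bp2. Igf2bp3 had Gm1976 (0.92), Slc8a1, and Zcchc11, the last of which encodes TUT4, the enzyme that adds uridine to let-7 precursors bound by LIN28. With so many genes over so few lines, high values of r arise by selection, and none of these carries a test.

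A pair of lines was obtained from each of 4 mice, with 1 library per line. In F319, where one line is from the right ovary (library 6) and the other from the uterus (library 10), the uterus line was higher in all 5 detected members, by 7.90-fold in Hmga1, 7.50-fold in Hmga2, 3.09-fold in Igf2bp1, 3.11-fold in Igf2bp2, and 15.9-fold in Igf2bp3. In F318, the left ovary line (library 9) exceeded the right (library 7) by 3.11-fold in Hmga1, 2.66-fold in Hmga2, and 13.3-fold in Igf2bp3. Igf2bp1, at 24.3 and 23.6 CPM, lay within the counting intervals. Both of these pairs cross the library numbers. The F364 and F326 pairs do not cross them and still differed. In F364, the left ovary line had 4.86 times the Igf2bp1 and 5.45 times the Igf2bp3 of the right, while Hmga1 differed by 1.05-fold, within the counting intervals. In F326, the ovary line had 0.306 of the Hmga1 level of the splenic tumor line, 0.387 of its Igf2bp2 level, and no Igf2bp1 count against 57.

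**Figure D2:**
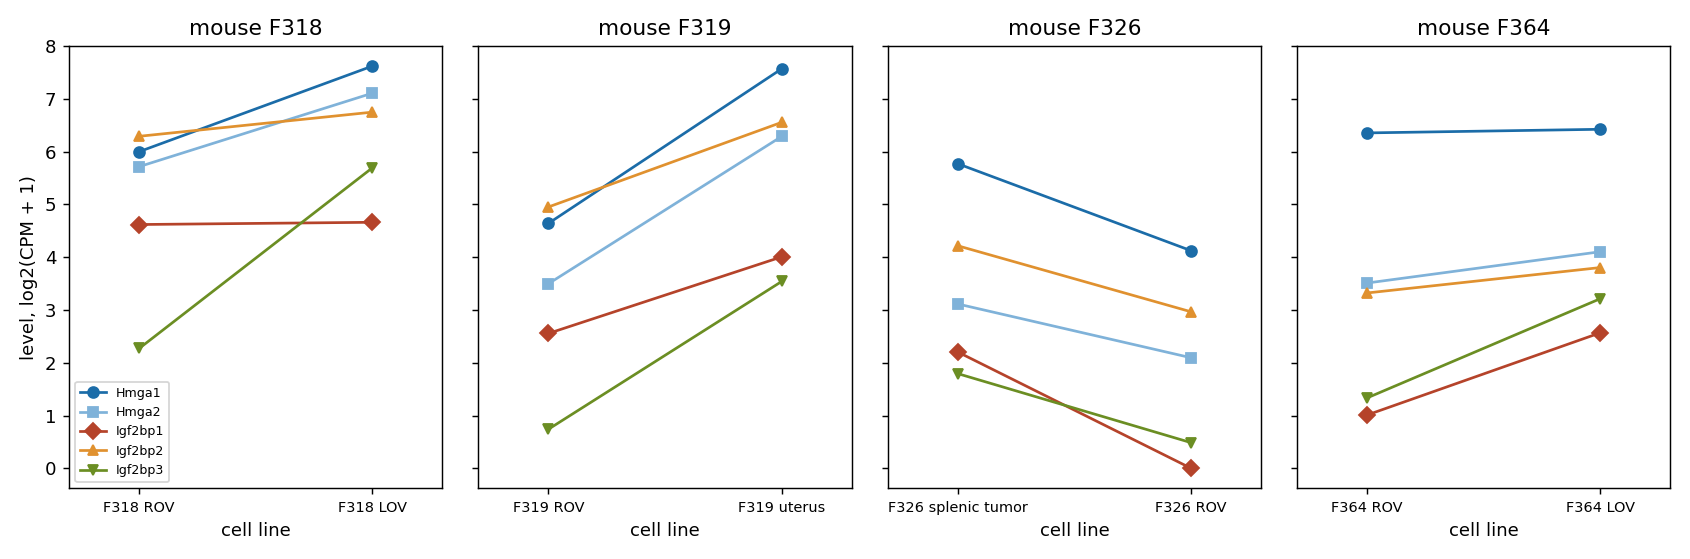
Levels of the 5 detected members in the 4 mice that gave 2 lines, as log2(CPM + 1); each point is 1 library and each line joins the same gene in both cell lines of a mouse. All 5 genes rise from F319 ROV to F319 uterus, and in F364 Igf2bp1 and Igf2bp3 differ by 4.86-fold and 5.45-fold while Hmga1 differs by 1.05-fold.

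By organ of origin, 2 lines came from the uterus and 7 from the ovary. Between the 2 uterus and the 7 ovary lines, no member differed in edgeR's quasi-likelihood test with Benjamini-Hochberg adjustment. Over all 17446 genes tested, 0 (0%) were called at an adjusted p under 0.05, 13.2% had an unadjusted p under 0.05, and DESeq2 called 1315 genes but no member. The uterus lines had Hmga1 at 149 and 189 CPM and the ovary lines at 16.4 to 196 CPM around a median of 80.9 CPM, a log2 fold change of 0.96 (SE 0.66, adjusted p = 0.429). For Hmga2, levels of 68.3 and 77.2 CPM in the uterus faced 3.27 to 137 CPM in the ovary lines, with a log2 fold change of 0.75 (SE 0.98). Igf2bp1 had a log2 fold change of 1.04 (SE 1.33), Igf2bp2 of 0.20 (SE 0.95), and Igf2bp3 of -1.36 (SE 1.81), the last from 10.6 and 0.186 CPM in the uterus lines against 0.401 to 50.8 CPM in the ovary lines. The groups overlapped for every one of the 5 genes. Single lines decided some of these values. Without F319 uterus the log2 fold change of Igf2bp3 was -5.98 and that of Igf2bp1 1.59, and without F333 uterus they were -0.39 and 0.19. Without the ovary line F318 LOV, Hmga2 had a log2 fold change of 1.36 and Igf2bp3 of -0.49. With the mouse as a block, where F319 alone holds both organs, no member was called. The 2 lines of F319 also lie in different sets of library numbers, so organ and set cannot be told apart in this fit. The blocked log2 fold changes were 2.71 for Hmga1, 2.63 for Hmga2, 1.35 for Igf2bp1, 1.36 for Igf2bp2, and, turned in direction, 3.70 for Igf2bp3 (adjusted p = 0.470 to 0.564). Within libraries 8 to 11, where 2 uterus lines face 2 ovary lines, the log2 fold changes of Hmga2 and Igf2bp2 turned to -0.49 and -0.89, those of Hmga1 and Igf2bp1 fell to 0.24 and 0.02, and that of Igf2bp3 was -2.90. There, 0 genes were called (522 at an unadjusted p under 0.05). The direction of Hmga2 and Igf2bp2 between organs therefore changes with the libraries compared.

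Libraries 8 to 11 were then compared with libraries 1 to 7 by the same test. The numbers are not labelled as a batch, and they were divided where the muscle fiber and Y-linked counts were known to separate, so this describes the sets and tests no condition. Over all 15954 genes, 58.5% were called, 28.6% as higher in libraries 8 to 11 and 29.9% as lower, a split of 48.9% higher among calls that became 62.0% without TMM normalization. Without TMM the median log2 fold change of all genes moved from 0.03 to 0.40. Against this background, 3 of the 5 members tested were called, all as higher. Hmga2 had a log2 fold change of 2.33 (SE 0.67, adjusted p = 0.0107), Igf2bp3 of 2.60 (SE 0.97, adjusted p = 0.0362), and Hmga1 of 1.33 (SE 0.50, adjusted p = 0.0364). Igf2bp1, at 1.98 (SE 0.98, adjusted p = 0.0979), and Igf2bp2, at 1.72 (SE 0.72, adjusted p = 0.0563), did not pass. Hmga1 and Hmga2 had no overlap in CPM between the sets, as had 26.1% of all genes in that direction. With the mouse as a block, which leaves F318 and F319 as the 2 mice with a line in each set, none of the 5 members was called, while 5.45% of all genes were called higher and 13.5% lower. On the log2 scale the blocked differences were 1.93 for Hmga2 (adjusted p = 0.0573), 2.08 for Hmga1 (adjusted p = 0.0584), and 3.62 for Igf2bp3 (adjusted p = 0.060), while Igf2bp1 and Igf2bp2 fell to 0.60 (adjusted p = 0.788) and 0.82 (adjusted p = 0.302). In the ovary lines alone (2 against 5), where 40.7% of all genes were called, Igf2bp3 was the one member called (log2 fold change 3.31, adjusted p = 0.0302), while Hmga2 was at 2.20 (SE 0.77, adjusted p = 0.0525) and Hmga1 at 1.04 (SE 0.66, adjusted p = 0.233). Hmga2 was called with each of the 11 lines left out in turn. Without F326 ROV, F319 ROV, or F318 LOV it was the only member called, although the log2 fold change of Hmga1 was still 1.18, 1.20, and 1.23 and that of Igf2bp3 2.40, 2.42, and 1.75. Without F318 ROV the values rose to 3.01 for Hmga2, 2.98 for Igf2bp1, and 2.38 for Igf2bp2, and without F364 LOV that of Igf2bp3 rose to 3.28. Muscle, endothelial, adipocyte, and Y-linked counts move with these sets as given above, and their part in the differences was not tested.

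**Figure D3:**
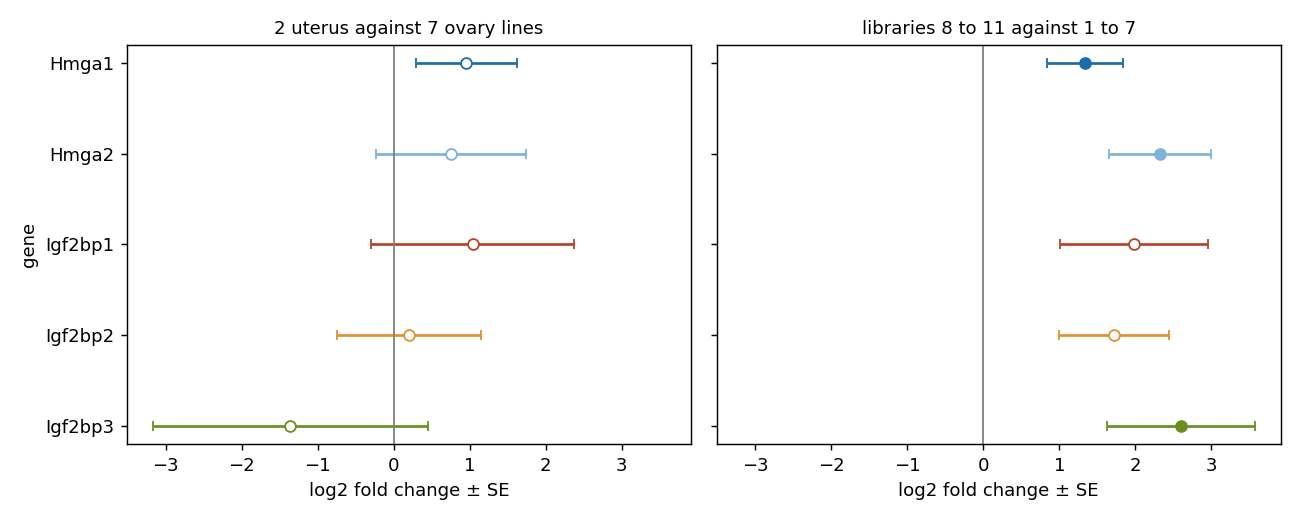
Log2 fold change of the 5 tested members, with bars of 1 SE, for 2 uterus against 7 ovary lines (left) and for libraries 8 to 11 against 1 to 7 (right); filled points passed the edgeR test at an adjusted p of 0.05. No member is called on the left, and Hmga1, Hmga2, and Igf2bp3 are called on the right, where 58.5% of all genes are; none of them is called once the mouse is a block.

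Other genes of these pathways were examined from lists, each read against the 28.6% of all genes called higher and 29.9% called lower between the sets of libraries. Of the genes that process or degrade let-7 precursors, 11 of 12 were in the table and tested, and all 11 were detected in every line. In libraries 8 to 11, 7 were higher, 1 lower, and 3 not called (median log2 fold change 0.74, against 0.03 over all genes). The largest increases were in Hnrnpa1, which binds let-7 precursors (1.74, SE 0.27), Xpo5, which exports precursors from the nucleus (1.43, SE 0.28), and Khsrp, which promotes their maturation (1.26, SE 0.24). Dis3l2, the nuclease that degrades uridylated let-7 precursors, was the one lower gene, at 10.4 to 14.7 CPM against 25.1 CPM as the median of libraries 1 to 7 (log2 fold change -1.32, SE 0.20). Drosha, which makes the first cut, had the highest median of the list over all lines, at 106 CPM. In libraries 8 to 11 its median was 218 CPM, below that of Khsrp at 243 CPM. Mature let-7 was not analysed here.

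Of 25 other let-7 targets, 23 were tested, and 11 were higher, 5 lower, and 7 not called (median 0.89, or 0.50 with the mouse as a block). Thbs1, which encodes thrombospondin 1 and held 63.4% of the list's counts, had a log2 fold change of 2.47 (SE 0.98), from a median of 364.2 CPM in libraries 1 to 7 to 5144 CPM in libraries 8 to 11. The D-type cyclins Ccnd1 (2.06, SE 0.54) and Ccnd2 (1.93, SE 0.51) were also higher. Mycn (-6.10, SE 1.62), Cdc34 (-2.64, SE 0.29), and Insr (-1.40, SE 0.25), which encode the N-Myc factor, a ubiquitin-conjugating enzyme, and the insulin receptor, were lower. Mycn was scarce, with 0.127 to 12.6 CPM in libraries 1 to 7, a median of 0.888 CPM there, and at most 0.0784 CPM in libraries 8 to 11, which is under the 3-count floor, so its fold change is not a measure of size. F319 ROV was its highest line. The targets thus moved in both directions. Trim71, an embryonic let-7 target, had the lowest median of the list, at 0 CPM, and reached at most 1.26 CPM.

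Of the other oncofetal and fetal growth genes, 12 of 13 were in the table and 10 were tested, with 4 higher and 4 lower. Its median of 1.06 is over genes on both sides of 0 and was 0.04 with the mouse as a block, 0.50 without the filter, and 1.88 in the ovary lines alone. Peg10, a retrotransposon-derived imprinted gene of the placenta, was at 44.7 to 484 CPM in libraries 8 to 11 against 15 CPM at most in libraries 1 to 7 (log2 fold change 3.91, SE 0.83). Tpbg, the trophoblast glycoprotein, was higher by 2.03 (SE 0.80) and Mex3a by 1.86 (SE 0.67) on the same scale. Afp and Meg3 were the lowest, with a median of 0 CPM. The lower genes were Sall4, an embryonic zinc finger factor (-5.89, SE 0.89), H19, the imprinted noncoding RNA (-4.90, SE 0.78), Gpc3 (-4.58, SE 0.78), and Igf2 (-3.24, SE 0.69). Sall4 was at 0.633 to 2.003 CPM in libraries 1 to 7 and under the 3-count floor in libraries 8 to 11, so its fold change too is not a measure of size. Gpc3 was near that floor in libraries 8 to 11, at 0.0784 to 0.557 CPM, so the size of its change is uncertain. H19 held 69.5% of the list's counts, with a median of 456 CPM in libraries 1 to 7 and 18.2 CPM in libraries 8 to 11. Igf2, whose mRNA gave the Igf2bp genes their name, was at 0.349 to 17.0 CPM and highest in F326 ROV, where the Igf2bp genes summed to 7.21 CPM.

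All 7 of the other high mobility group genes were tested, and 5 were higher, 1 lower, and 1 not called (median 0.94). Hmgn3 (2.01, SE 0.42), Hmgn2 (1.92, SE 0.32), and Hmgn1 (1.56, SE 0.27), which encode nucleosome-binding proteins, had the largest increases, and Hmgn5 was lower (-1.36, SE 0.26). Hmgn1 had the highest level of the list, at a median of 153 CPM, and Hmgn3 the lowest, at 7.08 CPM. In the ovary lines alone the calls were 6 higher and 1 lower for let-7 processing, 9 and 4 for let-7 targets, 4 and 3 for the oncofetal list, and 4 and 1 for the high mobility group list, against 18.6% of all genes higher and 22.1% lower. With the mouse as a block they were 3 and 1, 1 and 3, 0 and 4, and 1 and 1 in the same order, against 5.45% higher and 13.5% lower. Between uterus and ovary lines edgeR called no gene of the 4 lists. DESeq2 called 4 genes of the oncofetal list as lower in the uterus lines (Sall4, H19, Igf2, and Plagl1) and none of the other lists. Over all genes it called 1114 (6.39%) as lower and 201 as higher.

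**Figure D4:**
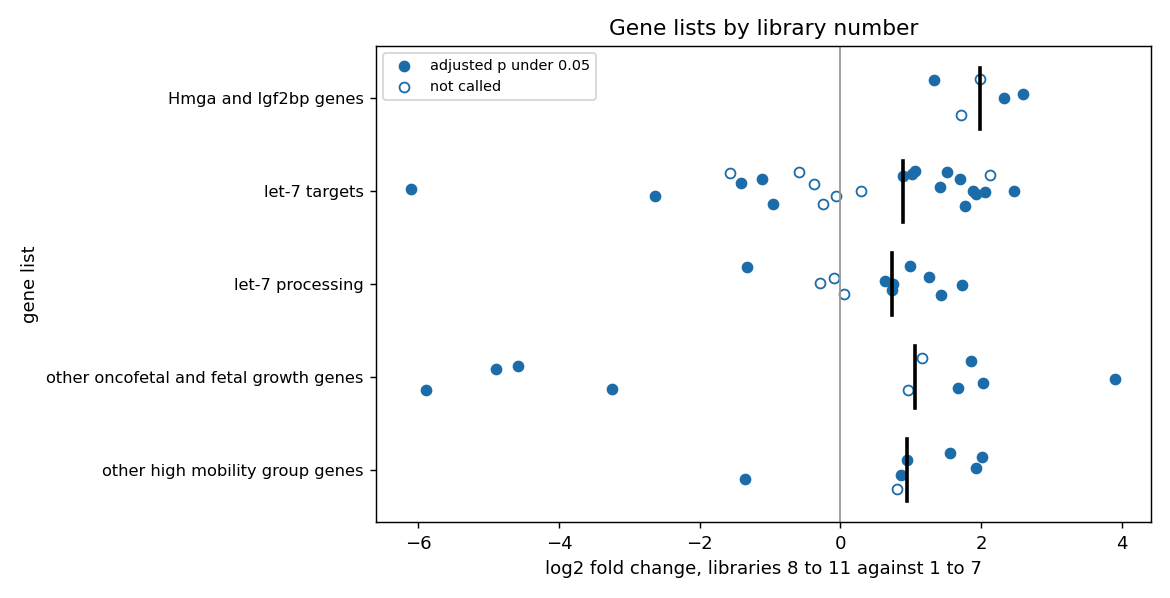
Log2 fold change of libraries 8 to 11 against 1 to 7 for the 5 tested members and for the tested genes of 4 lists; each point is 1 gene, filled where edgeR's adjusted p is under 0.05, and black bars are medians (0.89 for let-7 targets, 0.74 for let-7 processing, 1.06 for the oncofetal list, and 0.94 for the high mobility group list). Genes of the oncofetal list lie on both sides of 0, and its median is 0.04 with the mouse as a block.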

How the data were processed

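RNA was sequenced from 11 cell lines, 1 library each, from poly(A) RNA with a directional kit and paired-end reads. The authors aligned the reads to GRCm38 (Ensembl 86) with RNA STAR, removed duplicates with SAMtools RmDup, and counted them on genes with featureCounts; versions and the strand setting are not given in the sources used here. The deposited values are raw counts per gene, without normalization, and no pair of columns was identical. Several members overlap genes on the other strand (AI413582 at Hmga1, antisense RNAs at Hmga2, Malsu1 at Igf2bp3, Gm29202 at Igf2bp1, Gm13061 at Lin28a), whose reads may be included if strand was not used. How reads that match several places were counted is not given in the sources used here, so levels of genes with close relatives, Hmga1 included, are uncertain to that extent. Some items are not reported here.

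CPM used the total of all genes. Wilson intervals (95%) and floors of 3 counts cover counting error only. Comparisons used edgeR 4.0.16 (TMM, filterByExpr, quasi-likelihood test, two-sided) in R 4.3.3 over all genes with Benjamini-Hochberg adjustment at 0.05; Lin28a and Lin28b did not pass the filter. DESeq2 1.42.0, no filter, totals without TMM, each line left out, and subsets of lines were alternatives, and the mouse as a block was added after seeing the data. The labels name the mouse of each line; the deviations of a mouse's 2 lines from the means of their sets of library numbers, over 13966 genes, correlated at 0.24 in F318, -0.07 in F319, -0.51 in F326, and 0.31 in F364. The test was checked on simulated counts with 200 changed genes, at a small spread and at the spread of the lines. Recovery of the changed genes was required at the small spread alone. The check therefore does not show that such changes would be found among lines as unlike as these. P-values measure the spread between lines, which share mice in part.

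The members, the lists, and the division of library numbers were chosen with earlier results of these data known. Named genes were all members, the 3 genes most like each, Myc, and from each list up to 3 called genes with the largest change in each direction, the highest and the lowest in median level, and any gene that held most of the list's counts. Igf2, Plagl1, and the single marker genes of other cell types fall outside this rule and were named after their values were seen. Positions and exon lengths came from GENCODE M21, and miRNA and promoter sequences from RefSeq (GRCm38.p6). Python 3.11.15 was used for levels and figures.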

Additional observations from a re-analysis of the deposited data

Results flagged for a closer look

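In the 7 ovary lines, 3 levels stood apart from the next line by more than the gap that Dixon's test allows at 95%. Chance marks about 1 in 20 groups of normal values, but the test used CPM, which are skewed, and 7 genes were examined. These lines are not alike: 5 are from libraries 1 to 7 and 2 from libraries 8 to 11, and F364 and F318 gave 2 each, so the gaps are descriptions. Hmga1 was at 196 CPM in F318 LOV, and the next ovary line, F339 ROV, had 90.4 CPM. Among libraries 8 to 11 the interval of F318 LOV overlaps that of F319 uterus at 189 CPM. As log2(CPM + 1), Hmga1 was at 7.62 in F318 LOV, 6.51 in F339 ROV, and 4.12 in F326 ROV, the lowest ovary line. The gap is a smaller part of the range on that scale. Lin28b was at 1.71 CPM (27 counts) in F364 ROV, and the next ovary line had 0.134 CPM, which is 2 counts. Lin28a was at 0.267 CPM in F326 ROV, which rests on 4 counts, while the other ovary lines had none. With every other line at 0 any count would stand apart in this way, and its Wilson interval of 0.104 to 0.687 CPM overlaps theirs, so this level does not differ from theirs beyond counting error.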

How the results depend on the processing

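The mouse as a block was added after seeing the data. It left 0 genes called between uterus and ovary lines, where it reversed the log2 fold change of Igf2bp3 to 3.70. That reversal rests on the F319 pair, which also crosses the sets of library numbers. Between the sets of libraries it left 3028 genes and 0 members called. The residual degrees of freedom were 2 and 3. Of the 15 alternatives between uterus and ovary lines, those without F319 uterus or F333 uterus left 1 uterus line, so the ovary lines alone gave their spread. No member was called under the others. The number of genes called there was 1315 with DESeq2 and 2 without the filter, and 0 to 1 when a line was left out. The log2 fold change of Hmga2 reversed to -0.49 within libraries 8 to 11 and to -0.43 with the library numbers as a term, and that of Igf2bp2 reversed to -0.89, to -0.83, and to -0.58 without F319 uterus (0.72 without F333 uterus). Between libraries 8 to 11 and 1 to 7, all 5 members kept their direction under the 16 alternatives. The number of members called ranged from 1 to 4 when a line was left out and was 1 in the ovary lines alone, which also has fewer lines; the genes called ranged from 8526 to 9311. Igf2bp2 was called with DESeq2 (adjusted p = 0.0279) and without TMM (adjusted p = 0.0396), and Igf2bp1 without F318 ROV (adjusted p = 0.0124). Igf2bp2 was called in 3 (without F361, F318 ROV, or F333 uterus, at an adjusted p of 0.00666 to 0.0463), Igf2bp3 in 3, and Hmga1 in 6 of the 11 fits that left out a line; for Igf2bp3 the adjusted p reached 0.165 without F318 LOV. The cause of these changes was not tested. At 10 counts in place of 3, Lin28a was detected in no line. One library per line and the shared library numbers limit every comparison here.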
